A study of Sus scrofa with 6 samples.

Results

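S100A4, CEBPD, MFAP5, MGP and RAMP3 are 5 of the 21280 protein-coding genes measured in the brain of wild boars and domestic pigs, and 5 of the 11752 that passed the filter on low values. They were picked by name from the genes with the highest level in wild boar relative to domestic pig in these same libraries. The difference between the groups is therefore how they were found, and it is described below without a test. The samples came from 3 wild boars, labelled as brain, and 3 domestic pigs of the Chinese Rongchang breed, labelled as cerebrum, while the title of the series speaks of prefrontal cortex. Per the labels all 6 animals were 2-year-old females, no treatment was named, and the Rongchang libraries were taken over from another deposit and re-analysed. Breed, project and tissue label cannot be told apart in this design. Nothing in the labels says how the animals of a group were related, so spread between libraries stands for whatever separates these samples.

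The genes have different roles. S100A4 (ENSSSCG00000006578) encodes a small calcium-binding protein that binds non-muscle myosin and is known from fibroblasts, leukocytes and other motile cells. CEBPD (ENSSSCG00000032367) encodes a bZIP transcription factor of the C/EBP family, induced by inflammatory cytokines and by glucocorticoids. MFAP5 (ENSSSCG00000031712) encodes a glycoprotein of the fibrillin microfibrils that surround elastic fibres. MGP (ENSSSCG00000037697) encodes matrix Gla protein, a vitamin K-dependent protein of cartilage and the vessel wall that holds back calcification. RAMP3 (ENSSSCG00000031144) encodes a single-pass membrane protein that pairs with the calcitonin receptor-like receptor to form a receptor for adrenomedullin, a dilator peptide of vessels. In brain, the matrix genes are known mainly from vessel walls and meninges, whereas CEBPD and RAMP3 are known from several cell types.

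Levels are given as deposited TPM (transcript abundance scaled for gene length and for the library's total) and, where stated, as rescaled TPM. The protein-coding genes took between 17.2% and 31.0% of the full TPM scale in the wild boar libraries and between 23.5% and 40.9% in the domestic pig libraries, so a whole library could stand high or low. Rescaled TPM is deposited TPM divided by 1 median-ratio factor per library. It moved the median log2 difference of all tested genes to 0.07, against -0.41 on deposited TPM. Of the 11752 genes, 188 (1.6%) passed limma's test at an adjusted p under 0.05 on deposited TPM, 16 of them (0.136% of genes) higher and 172 (1.46%) lower in wild boar. After rescaling 2292 (19.5%) passed, of which 1363 were higher, or 59.5% of calls; with factors taken over the tested genes only, 45.4% of 2295 calls were higher. The labelled tissue held its defining markers: 10 of 10 neuron markers were tested, with a summed deposited level of 1045 to 2471 TPM in wild boar and 1671 to 2979 TPM in domestic pig.

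S100A4 was at 9.79, 6.65 and 2.33 TPM in wild boars 1, 2 and 3, against 0.955, 1.10 and 0.955 TPM in domestic pigs 1, 2 and 3. Every wild boar library lay above every domestic pig library, but wild boar 3 stood far below the other wild boars. After rescaling the levels were 11.3, 11.7 and 2.06 TPM in wild boar and 1.07, 0.728 and 0.689 TPM in domestic pig. Wild boars 1 and 2 then stood level and wild boar 3 was 5.68-fold below the highest. Among the tested genes S100A4 ranked at percentile 66.4, 67.4 and 16.8 in wild boars 1 to 3, against 4.78, 0.817 and 0.562 in domestic pigs 1 to 3. The log2 difference, wild boar minus domestic pig on log2(TPM + 1), was 1.70 (SE 0.33) on deposited and 2.10 (SE 0.47) on rescaled TPM. Because 1 is added to values near 1 TPM, this scale understates the fold, and the ratio of group means was 6.23 on deposited TPM. S100A4, CEBPD and MFAP5 passed the low-value filter only with their wild boar libraries, since not all 3 domestic pigs reached 1 TPM, whereas MGP and RAMP3 were above 1 TPM in all 6 libraries.

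CEBPD was at 3.97, 3.75 and 7.33 TPM in wild boars 1 to 3 and at 0.822, 1.77 and 1.28 TPM in domestic pigs 1 to 3. The groups did not overlap, and wild boar 1 was not the high library. Rescaled levels were 4.58, 6.59 and 6.48 TPM in wild boar, against 0.921, 1.17 and 0.925 TPM in domestic pig. The lowest rescaled wild boar value was 3.93-fold above the highest domestic pig value, the widest gap among the 5 genes. The log2 difference was 1.37 (SE 0.33) on deposited and 1.77 (SE 0.14) on rescaled TPM.

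MFAP5 was at 13.8, 1.37 and 4.64 TPM in wild boars 1 to 3, against 0.429, 1.38 and 2.27 TPM in domestic pigs 1 to 3. The groups overlapped: wild boar 2 lay below domestic pigs 2 and 3, and wild boar 1 alone held 69.7% of the summed wild boar TPM. After rescaling the levels were 15.99, 2.40 and 4.10 TPM in wild boar and 0.481, 0.911 and 1.64 TPM in domestic pig, with no overlap. Its log2 difference was 1.38 (SE 0.33) on deposited and 1.77 (SE 0.50) on rescaled TPM. The spread among wild boars, an SD of 6.47 around a mean of 6.62 TPM, was about as large as the mean itself.

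MGP was at 37.4, 9.84 and 20.8 TPM in wild boars 1 to 3 and 5.33, 8.68 and 14.01 TPM in domestic pigs 1 to 3. Wild boar 1 was again the highest library, and wild boar 2 lay below domestic pig 3, so the groups overlapped. Rescaled levels were 43.2, 17.3 and 18.4 TPM in wild boar, against 5.98, 5.73 and 10.1 TPM in domestic pig, without overlap. The log2 difference was 1.10 (SE 0.41) on deposited and 1.64 (SE 0.33) on rescaled TPM.

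RAMP3 was at 18.3, 11.6 and 27.7 TPM in wild boars 1 to 3, against 4.58, 17.3 and 8.59 TPM in domestic pigs 1 to 3. Domestic pig 2 lay above wild boar 2, so the groups overlapped on deposited TPM. After rescaling the wild boar libraries came close together, at 21.1, 20.4 and 24.5 TPM, while domestic pig stood at 5.13, 11.4 and 6.20 TPM. The log2 difference was 0.94 (SE 0.41) on deposited and 1.49 (SE 0.23) on rescaled TPM.

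On deposited TPM the groups did not overlap for 2 of the 5 genes, S100A4 and CEBPD, and after rescaling for 5 of 5. Of all tested genes, 0.408% stood higher in wild boar without overlap on deposited TPM and 24% after rescaling, and nothing is read from the members' counts because the same contrast chose them. The SE printed for deposited TPM is limma's, which there comes from the variance of other genes at a similar level rather than from the gene's own libraries.

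**Figure D1:**
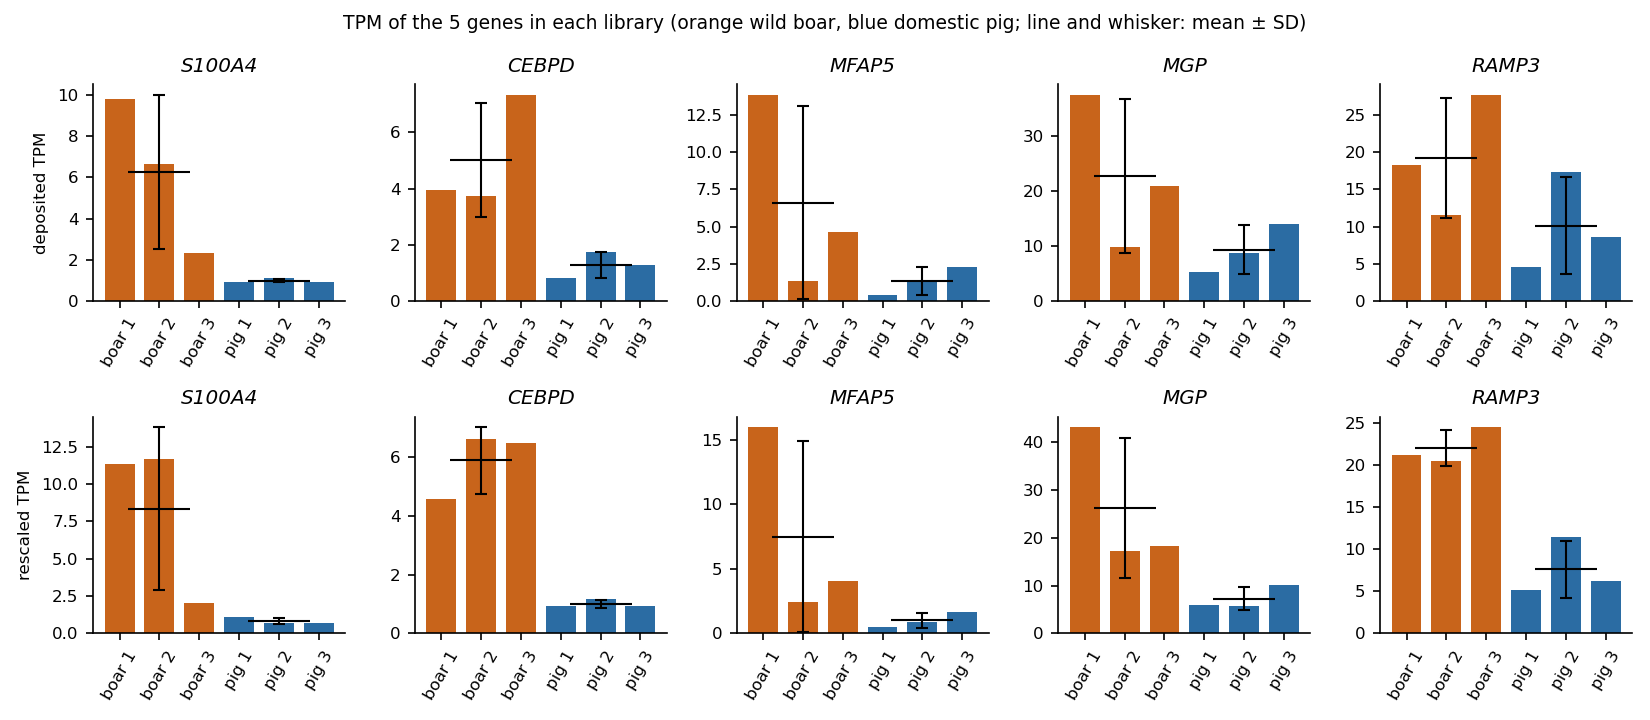
TPM of S100A4, CEBPD, MFAP5, MGP and RAMP3 in each library (x axis: wild boars 1 to 3, then domestic pigs 1 to 3; y axis: deposited TPM in the upper row, rescaled TPM in the lower row). Bars are single libraries, lines and whiskers are the group mean ± SD (n = 3 each). MFAP5 and MGP peak in wild boar 1, and S100A4 is low in wild boar 3. Rescaled RAMP3 is similar in all 3 wild boars, and rescaled CEBPD is lowest among them in wild boar 1.

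How far wild boar 1 carries the difference was then described by leaving that library out. MFAP5 was at a log2 difference of 0.71 without wild boar 1 on deposited TPM, against 1.38 with all 6 libraries, and MGP at 0.66, against 1.10. After rescaling MFAP5 was at 1.09 without it and MGP at 1.23. The ratio of mean TPM, wild boar over domestic pig, was 2.21 for MFAP5 and 1.64 for MGP without wild boar 1, and 4.87 and 2.43 with it. S100A4 was at 1.33 on deposited and 1.77 on rescaled TPM without that library. CEBPD moved up, to 1.48 and 1.91, and RAMP3 stayed at 0.94 and 1.51.

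Other libraries mattered for other genes. For S100A4 the library with most weight after rescaling was wild boar 3, without which the log2 difference was 2.78. For RAMP3 on deposited TPM, domestic pigs 2 and 1 pulled in opposite directions: the value was 1.39 without domestic pig 2 and 0.53 without domestic pig 1, against 0.94 with all 6 libraries. CEBPD ranged least after rescaling, between 1.69 and 1.91. Over the 6 libraries left out in turn and both scalings, every value of the 5 genes was above 0, the direction for which they were chosen.

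**Figure D2:**
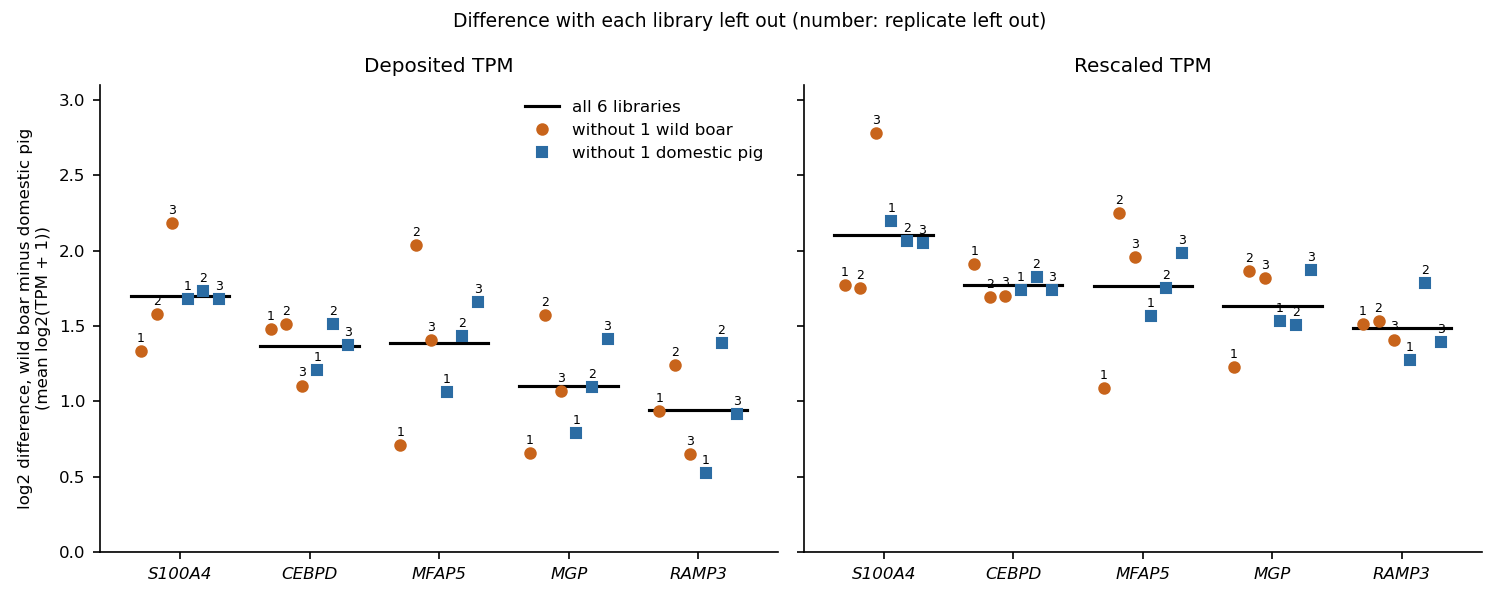
Log2 difference, wild boar minus domestic pig (y axis, mean log2(TPM + 1)), for each gene (x axis) on deposited and rescaled TPM. Black lines use all 6 libraries, orange points leave out the numbered wild boar and blue points the numbered domestic pig; MFAP5 is lowest without wild boar 1, at 0.71 and 1.09.

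Set against the other wild boars, wild boar 1 was a library of high MFAP5, MGP and S100A4 and of low CEBPD. Its log2 value minus the mean of wild boars 2 and 3 was 2.02 for MFAP5, rank 4 of the 11752 tested genes on deposited TPM. For MGP it was 1.32 (rank 13), and for S100A4 1.10 (rank 28). RAMP3, at 0.02, lay near the median of all genes, 0.08, and CEBPD, at -0.34, at percentile 3.74. Wild boar 1 was the highest of the 6 libraries for S100A4, MFAP5 and MGP on deposited TPM, and for MFAP5 and MGP after rescaling. That held for 1.21% of all tested genes on deposited and 16.1% on rescaled TPM.

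Ratios between the genes within a library do not depend on any scaling. MFAP5 relative to MGP was 0.370, 0.139 and 0.223 in wild boars 1 to 3, against 0.0804, 0.159 and 0.162 in domestic pigs 1 to 3, a 4.60-fold span with overlapping groups. S100A4 relative to MFAP5 spanned 11.6-fold over the libraries, the widest of the 10 pairs. CEBPD relative to RAMP3 spanned 3.16-fold, the narrowest, at 0.217, 0.323 and 0.265 in wild boar, against 0.180, 0.102 and 0.149 in domestic pig. The 5 genes therefore did not share a single profile over the libraries.

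Vessel-wall genes were the next comparison. Mural cells are the smooth muscle cells and pericytes around vessels, and fibroblasts line larger vessels and the meninges. In bulk tissue, fewer cells of a type and less RNA per cell cannot be told apart. Of 15 tested mural cell markers other than the members, 0 passed on deposited TPM, and 6 were higher and 0 lower after rescaling. DES, an intermediate filament gene of muscle, and TAGLN, an actin-binding smooth muscle gene, were higher after rescaling by log2 1.02 (limma adjusted p = 0.0116) and 1.11 (limma adjusted p = 0.0198). After rescaling 12 of the 15 mural markers were above 0. RGS5, ABCC9 and HIGD1B, named after their values were seen, were at -0.36, -0.36 and -0.11 and did not pass. Of 16 tested fibroblast markers 0 passed on deposited TPM, and 7 were higher and 0 lower after rescaling. Among these COL6A2, a collagen VI chain, was higher by 1.05 (limma adjusted p = 0.00478) and ISLR, a secreted protein of stromal cells, by 1.04 (limma adjusted p = 0.00630). Over all genes 11.6% were called higher after rescaling. The median rescaled difference was 0.48 for mural and 0.60 for fibroblast markers, against 0.07 for all tested genes. Without wild boar 1, 3 of 15 mural and 4 of 16 fibroblast markers were called higher after rescaling, where 5.62% of all genes were, and 0 lower, where 3.99% were.

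Many of these markers peaked in the same animal as MFAP5 and MGP. Wild boar 1 was the highest of the 6 libraries for 6 of 15 mural and 5 of 16 fibroblast markers on deposited TPM, against 1.21% of all genes. After rescaling it was the highest for 7 of 15 and 9 of 16, against 16.1% of all genes. ACTA2, the actin of smooth muscle, was at 23.9, 8.01 and 10.5 TPM in wild boars 1 to 3 and 4.50, 9.15 and 11.1 TPM in domestic pigs 1 to 3. On deposited TPM its order within wild boar was the same as that of MFAP5 and MGP. After rescaling ACTA2 was at 27.6, 14.1 and 9.24 TPM in wild boars 1 to 3. It was then lowest in wild boar 3, whereas MFAP5 and MGP were lowest in wild boar 2. Of 15 endothelial markers wild boar 1 was highest for 0 on either scaling, and their rescaled median was 0.06. After rescaling 2 of the 15 were called higher, where 11.6% of all genes were, and 9 of the 15 were above 0. The 2 were CLDN5, a tight junction gene of brain endothelium, and EGFL7, an endothelial matrix gene, by log2 1.34 and 0.84 (limma adjusted p = 0.00569 and 0.00908). MFSD2A and TEK, named after their values were seen, were lowest, at -0.33 and -0.31, and did not pass.

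The summed mural level was 178, 105 and 188 TPM in wild boars 1 to 3, against 134, 210.0 and 245 TPM in domestic pigs 1 to 3, and the summed fibroblast level 206, 102 and 179 TPM against 94.6, 198 and 161 TPM. Both sums overlapped between the groups on deposited TPM, and after rescaling only the mural sum did. Each of the 5 genes was then expressed as a percentage of these sums in its own library, which removes any scaling. S100A4 made 5.50%, 6.32% and 1.24% of the mural sum in wild boars 1 to 3, against 0.710%, 0.525% and 0.390% in domestic pigs 1 to 3. CEBPD made 2.23%, 3.57% and 3.91%, against 0.611%, 0.841% and 0.524%. MFAP5 made 7.77%, 1.30% and 2.48%, against 0.319%, 0.656% and 0.929%. MGP made 21.0%, 9.36% and 11.1%, against 3.97%, 4.13% and 5.73%. RAMP3 made 10.3%, 11.1% and 14.8%, against 3.40%, 8.24% and 3.51%. Relative to the mural sum, all 5 genes were thus without overlap between the groups, and MFAP5 and MGP still peaked in wild boar 1. The mean mural sum was lower in wild boar on deposited TPM, at 157 against 196 TPM. After rescaling it was higher there, at 185 against 155 TPM. The share of all tested genes without overlap on this measure was not computed. Nothing is read from the members' count, because the same contrast chose them.

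Relative to the fibroblast sum the groups overlapped for MFAP5, at 6.73%, 1.34% and 2.6% in wild boar against 0.453%, 0.697% and 1.41% in domestic pig. The other 4 genes did not overlap, with a ratio of group means of 5.84 for S100A4, 3.80 for CEBPD, 2.11 for MGP and 1.89 for RAMP3. VIM, a filament gene of many cell types, held 63.7% of the fibroblast sum, and without VIM MGP overlapped as well, at 57.7%, 23.9% and 33.6% against 15.9%, 10.6% and 24.5%. TPM1, a tropomyosin gene also made outside muscle, held 45.5% of the mural sum, and without it all 5 genes remained free of overlap. The share of all tested genes without overlap was not computed for these measures. Nothing is read from these overlaps either, because the same contrast chose the 5 genes. The part of vessel-wall content in the differences was not tested.

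**Figure D3:**
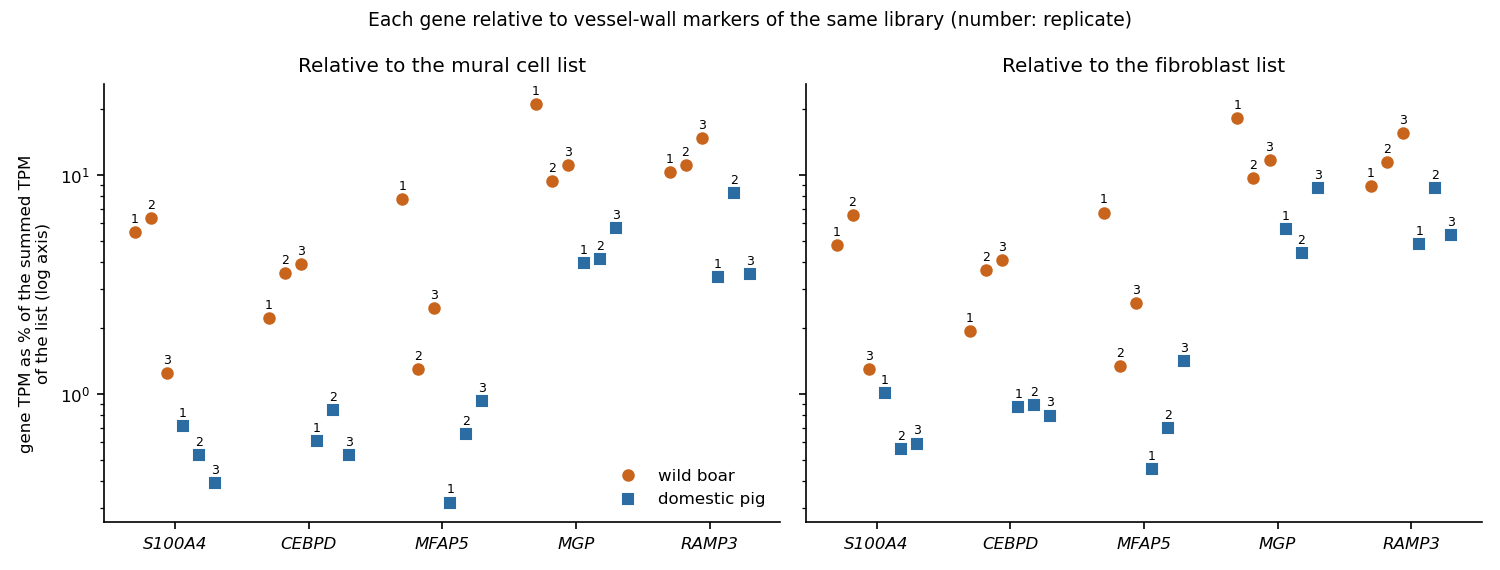
TPM of each gene (x axis) as a percentage of the summed TPM of the mural cell list and of the fibroblast list in the same library (y axis, log scale). Orange circles are wild boars and blue squares domestic pigs, numbered by replicate. All 5 genes, which were chosen by this contrast, separate the groups relative to the mural list. Relative to the fibroblast list, MFAP5 of wild boar 2 lies below domestic pig 3.

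Markers of blood cells were then counted. All 4 tested red blood cell markers passed as higher after rescaling and 2 on deposited TPM, against 11.6% and 0.136% of all genes. The list's summed level was 596, 760.3 and 522 TPM in wild boars 1 to 3, against 141, 123 and 312 TPM in domestic pigs 1 to 3. HBB, a beta-type globin with near-identical copies whose reads may be split, made 99.0% of that sum. Without wild boar 1, 3 of the 4 passed as higher after rescaling, against 5.62% of all genes. Without that library 0 passed on deposited TPM, where 0.0596% of all genes were called higher and 0.434% lower. Of 9 tested markers of leukocytes and border macrophages, 2 were higher after rescaling, where 11.6% of all genes were, and 0 passed on deposited TPM. The 2 were MRC1 and F13A1, higher by log2 0.61 and 0.46 (limma adjusted p = 0.0176 and 0.0342). Of the 19 leukocyte markers in the table MPO and ELANE, of neutrophil granules, were at 0 in every library, and the sum was 20.9, 20.7 and 33.7 TPM in wild boars 1 to 3, against 22.6, 28.4 and 30.1 TPM in domestic pigs 1 to 3. Within wild boar, on deposited TPM, S100A4 was highest in wild boar 1, the red blood cell sum in wild boar 2 and the leukocyte sum in wild boar 3; after rescaling all 3 were highest in wild boar 2. The part of blood in the S100A4 difference was not tested.

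Relatives of each gene came next. Of 6 other tested S100 genes 0 passed on either scaling, with rescaled differences of 0.12 to 0.75; without wild boar 1, 2 of 6 were higher after rescaling, where 5.62% of all genes were. S100A1, the most abundant, was at 594, 497 and 627 TPM in wild boar, against 413, 483 and 655 TPM in domestic pig. S100A6 was at 29.5, 34.2 and 66.0 TPM against 48.3, 67.1 and 53.9 TPM, and S100A11 at 1.85, 5.05 and 4.75 TPM against 2.80, 3.57 and 2.83 TPM. On deposited TPM neither had the S100A4 order within wild boar, in which wild boar 3 was lowest. After rescaling the summed level of the S100 list was 801, 1043 and 677 TPM in wild boars 1 to 3. That sum, 82.0% of it from S100A1, was lowest in wild boar 3, as S100A4 was. The neighbouring genes in the RefSeq gene order of Sscrofa11.1 that were tested, S100A14 and S100A1 on one side and S100A6 and S100A8 on the other, did not pass either.

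Among 18 tested C/EBP and inflammation response genes other than CEBPD, 0 passed on deposited TPM; after rescaling 5 were higher and 2 lower, against 11.6% and 7.91% of all genes. NFKBIA, the inhibitor that NF-kB itself induces, was at 13.8, 10.8 and 21.4 TPM in wild boars 1 to 3 and 5.01, 10.4 and 11.6 TPM in domestic pigs 1 to 3, higher after rescaling by log2 1.26 (SE 0.15, limma adjusted p = 0.00371). CEBPB and CEBPA, the closest family members tested, were higher by 0.83 and 0.51, IL1R1 by 0.59 and CD14 by 0.65. CEBPZ, which shares the name but works in ribosome assembly, was lower by -0.80 (limma adjusted p = 0.00529), and NFKBIZ, a nuclear co-regulator of NF-kB, by -0.37. CEBPG, JUNB, STAT3, ZFP36 and FKBP5 did not pass, at -0.06, -0.40, 0.16, 0.39 and 0.83. FKBP5, a gene induced by glucocorticoids, varied most within wild boar, at 4.02, 8.56 and 27.4 TPM in wild boars 1 to 3, against 4.46, 10.7 and 10.1 TPM in domestic pigs 1 to 3. Beyond NFKBIA and CEBPZ these genes were named after their values were seen.

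The microfibril and elastic fibre list held 14 tested genes other than MFAP5, of which 0 passed on deposited TPM and 5 were higher and 0 lower after rescaling, against 11.6% and 7.91% of all genes. Without wild boar 1 these counts were 3 and 1, against 5.62% and 3.99%. FBLN1, a fibulin of basement membranes and elastic fibres, was at 3.02, 2.44 and 3.15 TPM in wild boar, against 0.875, 2.28 and 1.73 TPM in domestic pig (rescaled log2 difference 1.00, limma adjusted p = 0.00678). LTBP4, a binding protein of latent TGF-beta, was higher by 0.71 (limma adjusted p = 0.0138). FBN1, the fibrillin of the microfibril core, did not pass and was at 1.74, 0.991 and 2.08 TPM against 1.83, 4.40 and 2.89 TPM. Wild boar 1, where MFAP5 peaked, was the highest of the 6 libraries for 0 of the 14 genes on deposited TPM and for 2 after rescaling, against 1.21% and 16.1% of all genes. FBN1 was named after its values were seen.

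Of 11 tested genes of the vitamin K cycle and of calcification other than MGP, 3 were higher and 0 lower after rescaling, against 11.6% and 7.91% of all genes, and 1, UCMA, was lower on deposited TPM, against 1.46%. Without wild boar 1, 1 of the 11 was higher after rescaling, against 5.62% of all genes. GAS6, a vitamin K-dependent ligand of receptor kinases, stood log2 0.80 higher (limma adjusted p = 0.00439), and SPP1, which encodes osteopontin, 1.13 higher (limma adjusted p = 0.0312). GGCX, the carboxylase that activates Gla proteins, did not pass, at -0.12. UCMA, a Gla protein of cartilage, was at 0.773, 0.248 and 2.93 TPM in wild boar and 4.27, 2.62 and 3.28 TPM in domestic pig. UCMA and GGCX were named after their values were seen.

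The receptor partners and relatives of RAMP3 were 5 tested genes, of which 0 passed on either scaling (without wild boar 1, 1 was higher after rescaling, where 5.62% of all genes were). RAMP1 and RAMP2, the other members of the family, were at rescaled differences of 0.56 (limma adjusted p = 0.0543) and 0.30. CALCRL, the receptor that RAMP3 joins, was at 3.00, 2.18 and 5.15 TPM in wild boar, against 3.29, 5.07 and 6.97 TPM in domestic pig, a rescaled difference of -0.01. CALCR, the calcitonin receptor, and ACKR3, a scavenging receptor, were at 0.45 and 0.43. The difference of RAMP3 from its partners was not tested.

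**Figure D4:**
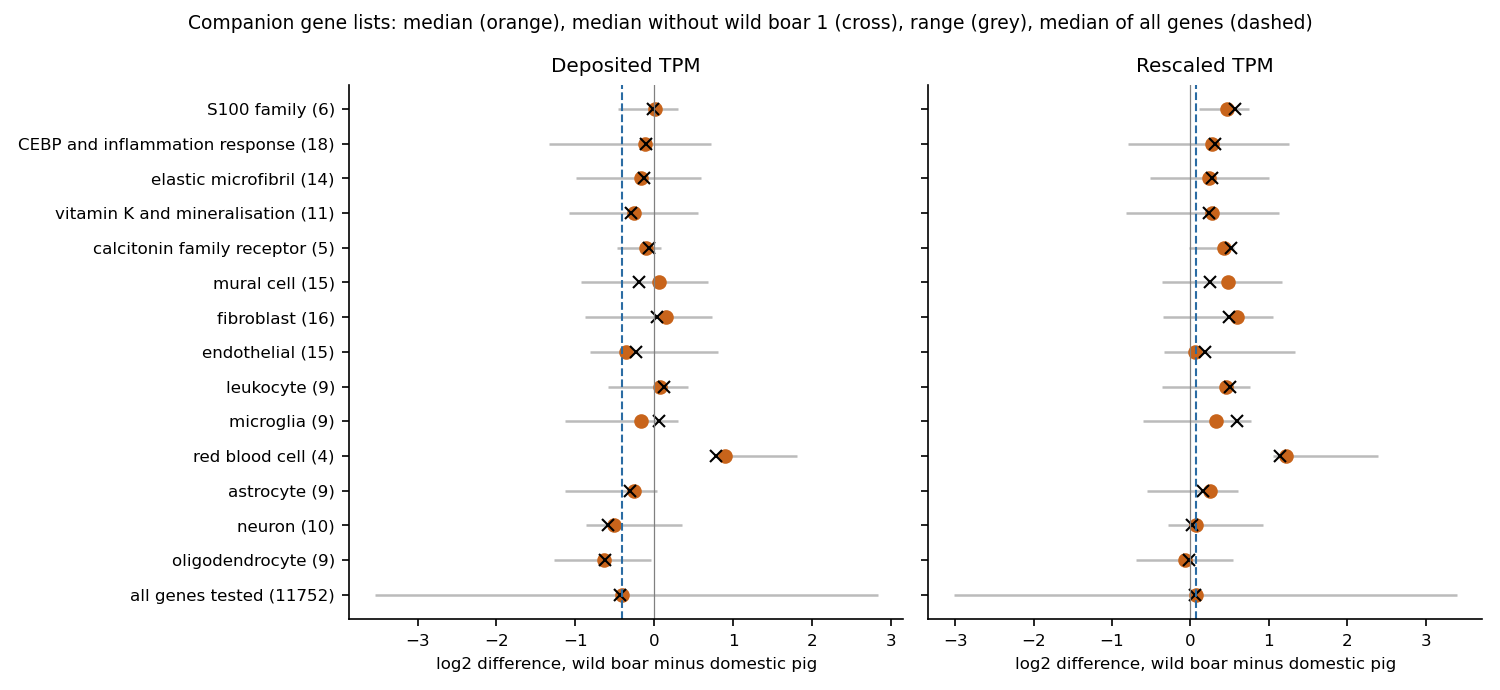
Log2 difference, wild boar minus domestic pig (x axis), of gene lists that leave out the 5 members, with the number of tested genes in brackets (y axis), on deposited and rescaled TPM. Orange points are list medians, crosses the medians without wild boar 1, grey lines the range from lowest to highest gene and the dashed line the median of all tested genes; the red blood cell list stands highest, at 0.89 and 1.22.

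The genes with the most similar profiles were then found over the 6 libraries, as the smallest root-mean-square distance between log2(rescaled TPM + 1) profiles centred on their own means. Being near here includes the group difference that chose the members. MGP lay nearest to C7, a complement component, at a distance of 0.14, then to C16orf89 and ACTA2 at 0.30 and 0.32. C7 was at 8.31, 3.12 and 3.59 rescaled TPM in wild boars 1 to 3, against 0.871, 0.585 and 1.21 in domestic pigs 1 to 3. MFAP5 lay nearest to MGP itself, at 0.33, and then to C7 and C16orf89, at 0.40 and 0.41. S100A4 lay nearest to AHSP and HBB, genes of red blood cells, and to SLIRP, at 0.61 to 0.63. AHSP, a chaperone of alpha globin, was at 3.45, 3.20 and 1.42 rescaled TPM in wild boar, against 0.826, 0.188 and 0.657 in domestic pig. CEBPD lay nearest to TMEM158, CTSD and POLE4, at 0.24 to 0.28, and RAMP3 to CCN3, SYN1 and FASN, at 0.18 to 0.23. RAMP3 itself ranked 13 in the order of genes nearest to CEBPD, at 0.32, whereas MFAP5 ranked 5127.

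When profiles were taken as deviations from the group means, which removes the group difference, some of these likenesses held and others did not. MGP stayed nearest to C7, at 0.13, and MFAP5 had CRABP2, APOLD1 and PROCR as its nearest genes, at 0.21 to 0.31, with MGP at rank 4. CRABP2, a retinoic acid-binding protein, was at 12.3, 1.78 and 1.71 rescaled TPM in wild boar, against 0.947, 1.29 and 2.01 in domestic pig. S100A4 lay nearest to MCAM, an adhesion gene of mural cells, at 0.35, and AHSP ranked 9. CEBPD lay nearest to CDH20, at 0.02, and RAMP3 to GATAD2B, at 0.03, which was at 5.13, 5.26 and 6.11 rescaled TPM in wild boar, against 2.79, 6.53 and 3.31 in domestic pig. The distance between CEBPD and RAMP3 was 0.29, against 0.32 before, but their ranks fell. RAMP3 ranked 9159 of 10511 in the order of genes nearest to CEBPD, and CEBPD 2571 in that nearest to RAMP3. The median distance of all ranked genes from CEBPD was 0.21 on this measure, against 0.88 before. Among the nearest 5% of the 10511 genes ranked were 4 of 15 mural and 4 of 16 fibroblast markers for MGP, 4 and 5 for MFAP5, and 7 and 5 for S100A4. For CEBPD and for RAMP3 they were 1 and 1. Of the 4 tested red blood cell markers, 3 were among the nearest 5% for S100A4 and 0 for each other member.

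**Figure D5:**
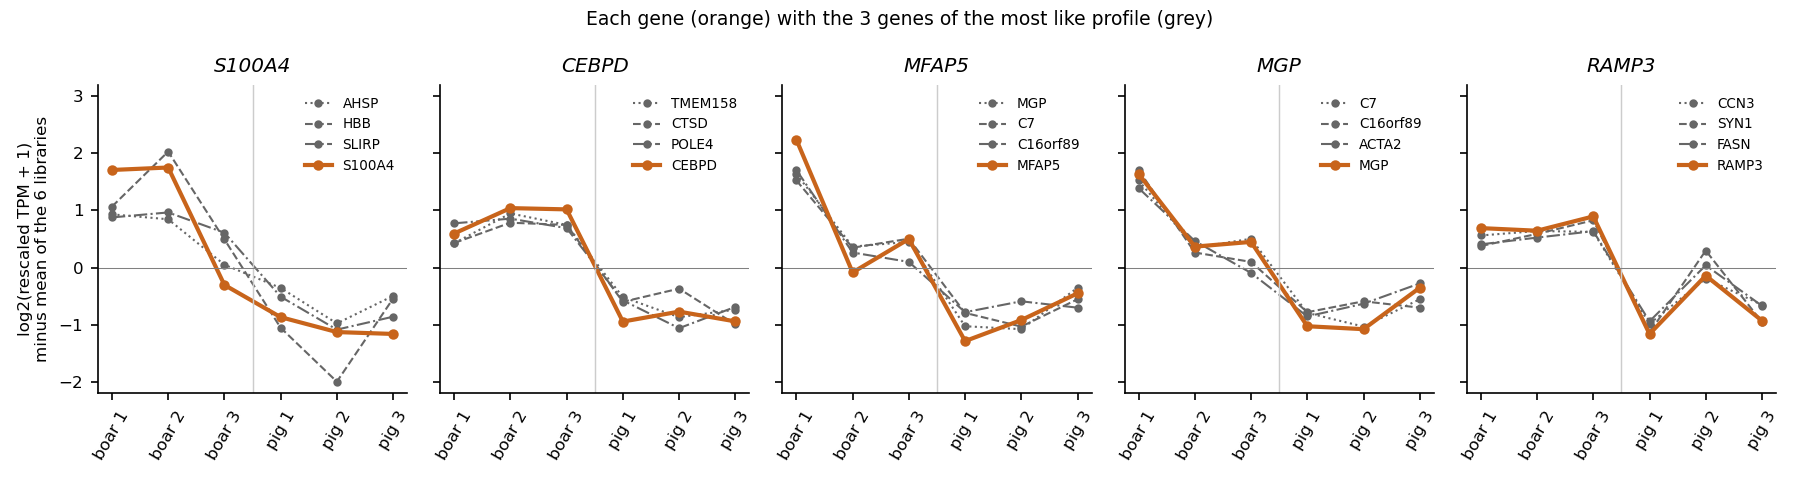
Profile of each gene (orange) and of the 3 genes nearest to it (grey), as log2(rescaled TPM + 1) minus the mean of the 6 libraries (y axis), over wild boars 1 to 3 and domestic pigs 1 to 3 (x axis). Lines only join the points of a gene. MFAP5 and MGP share the peak in wild boar 1 with C7 and C16orf89. RAMP3 is nearly flat within wild boar, and CEBPD is lowest there in wild boar 1.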

How the data were processed

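Stranded libraries were made from Trizol-isolated RNA freed of rRNA, per the labels' protocols. The authors deposited TPM for protein-coding genes and for circRNAs; STAR 2.6.0c and BWA 0.7.17 appear, with no role given, in the submitters' processing notes, and the quantifier, annotation, genome build and strand setting are not given in the sources used here. TPM keeps no depth, so no counting interval can be given. Symbols matched 14821 of 21280 identifiers, and 0 further columns of per-sample values were left unused. Genes that reached 1 TPM in 3 or more libraries were fitted on log2(TPM + 1) with limma 3.58.1 (mean-variance trend, R 4.3.3), two-sided, with Benjamini-Hochberg adjustment over all 11752 genes. Fold changes on this scale understate changes of low values. The fit was tested on simulated data. Median-ratio factors came from the genes above 0 in all 6 libraries. The log2 factors were -0.21, -0.81 and 0.18 in wild boars 1 to 3 and -0.17, 0.60 and 0.47 in domestic pigs 1 to 3.

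The members and the gene lists were chosen with earlier results of these data known. Named genes were the members, the 2 tested genes of lowest rescaled p from each list and the 3 nearest profiles per member; S100 and calcitonin family genes are given as families, and further genes are marked where named. Not every gene that rule picks is described. Members were left out of every list, and the sums for marker lists take all listed genes in the table. In the circRNA table, 0 circRNAs overlapped any of the 5 genes, by position against RefSeq Sscrofa11.1 gene spans, in which 99.3% of the 11375 circRNAs lay inside a gene.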

Additional observations from a re-analysis of the deposited data

How the results depend on the processing

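The number of genes called depended on the scaling and on single libraries. On deposited TPM 188 genes passed. Alternatives gave 2292 with median-ratio rescaling, 1139 with protein-coding sums made equal, 2362 with quantile normalisation, 33 with TPM of at least 1 in all 6 libraries, 285 without limma's trend, and 1 without the filter on low values (3559 at an unadjusted p under 0.05). Leaving out 1 library gave 58 (without wild boar 1) to 665 (without domestic pig 1). After rescaling 2292 passed, 1255 without the filter, and 1129, 822 and 881 without wild boars 1, 2 and 3, and 979, 2232 and 1499 without domestic pigs 1, 2 and 3. With the replicate number as a block 70 genes passed on deposited and 1294 on rescaled TPM. The groups came from different projects, so the numbers were taken not to pair the animals. Deviations of same-numbered libraries correlated at r = 0.10, -0.04 and -0.01 on deposited and 0.11, -0.07 and -0.16 on rescaled TPM. With 3 libraries per group such correlations cannot settle whether a pairing exists. The cause of these shifts was not tested. The 5 members kept their direction under each of the alternatives in which they were fitted, 117 values in all, of which 13 moved by more than the spread between libraries. They were chosen for this direction, so nothing is read from its being kept. Changing the filter, the trend or the block leaves a member's log2 difference as it is, so those values only repeat it. The lowest and highest values were 1.33 and 2.86 for S100A4, 1.11 and 2.43 for CEBPD, 0.71 and 2.46 for MFAP5, 0.66 and 1.87 for MGP, and 0.53 and 1.79 for RAMP3. Of 360 list medians 150 moved beyond that spread. Requiring TPM of at least 1 in all libraries removed S100A4, CEBPD and MFAP5. Factors over the tested genes and a pseudocount of 0.1 after rescaling were added after seeing the data. With TPM alone, the sequencing depth of each gene is unknown.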

Other observations

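Glial and neuronal lists stood beside the described genes as follows. Of 9 tested oligodendrocyte markers, 3 were lower after rescaling, where 7.91% of all genes were, and 0 passed on deposited TPM. ERMN, a cytoskeletal gene of myelinating cells, was at 77.8, 63.6 and 122 TPM in wild boars 1 to 3, against 161, 213 and 250.1 TPM in domestic pigs 1 to 3 (rescaled log2 difference -0.69, limma adjusted p = 0.0237). Of 10 neuron markers 3 were higher after rescaling, where 11.6% of all genes were, and 0 passed on deposited TPM. Among the 3 were CAMK2A, a synaptic kinase gene, by 0.92, and SLC17A7, a vesicular glutamate transporter, by 0.87 (limma adjusted p = 0.0140 and 0.0185). The rescaled list median was 0.07, as for all tested genes, and 5 of the 10 markers were above 0. MAP2, named after its values were seen, was lowest, at -0.29. Of 9 microglial markers C1QA, a complement gene, was higher by 0.78 (limma adjusted p = 0.0292), while P2RY12, a receptor of resting microglia, was at 5.11, 6.12 and 7.34 TPM in wild boar, against 14.3, 13.5 and 16.03 TPM in domestic pig, and did not pass after rescaling (-0.60, limma adjusted p = 0.106). Of 9 astrocyte markers 1 was higher after rescaling, where 11.6% of all genes were: ALDOC, a glycolytic enzyme gene, by 0.61 (limma adjusted p = 0.0166).

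TTR, the transthyretin gene of choroid plexus, varied within both groups, at 1.75, 0.745 and 31.8 TPM in wild boars 1 to 3 and 27.0, 5.39 and 0.558 TPM in domestic pigs 1 to 3. Of the 20 tested genes nearest to the members in the RefSeq gene order, 0 passed on deposited TPM and 4 after rescaling. Over all tested genes 1.6% and 19.5% passed, so these counts stood near the shares of all genes. RIMKLB, beside MFAP5, and GORAB, near CEBPD, were lower, at log2 -0.48 and -0.43 (limma adjusted p = 0.0227 and 0.0314), and NECAP1, near MFAP5, was higher by 0.42 (limma adjusted p = 0.0368). ARHGDIB, beside MGP, was higher by 0.91 (limma adjusted p = 0.0103), at 12.1, 11.11 and 20.8 TPM in wild boar and 8.32, 10.6 and 13.5 TPM in domestic pig. Its highest library was wild boar 3; these 4 were named after their values were seen.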
